A study of Mus musculus with 4 samples.

Results

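The myosin light chains described here are the products of 10 genes, picked by name among the 32285 gene identifiers of the count tables: Myl1, Myl2, Myl3, Myl4 and Mylpf, which serve the sarcomere of striated muscle, and Myl6, Myl6b, Myl9, Myl12a and Myl12b, which are grouped here as non-muscle light chains. All 10 were found by symbol. The cells were mouse muscle stem cells of the genotype labelled MyoD-KI, held in growth medium for 5 days and sorted for high MyoD-tdTomato signal, where tdTomato is a red fluorescent protein reporting on the muscle transcription factor MyoD. The labels name neither the age of the mice nor how many were used. There is 1 group with replicates numbered 1 to 4, and the sorted cells with low reporter signal were not analysed here.

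Each replicate file held 5950 to 5974 cell barcodes and 62627341 to 68898900 unique molecular identifiers (UMIs, 1 per captured transcript). Any pair of files shared 5946 to 5965 barcodes, 99.883% to 99.95% of the smaller file, and the UMI totals of single cells correlated between files with Pearson r of 0.9996 to 0.9997. The files thus repeat the same cells, and count as 1 sample (n = 1). No test was run and no p-value is given. Intervals are exact 95% intervals at the mean count of 1 file, and cover counting error only. Of the 5944 barcodes present in all files, 5481 passed the filter of at least 1000 genes and under 10% mitochondrial UMIs, with a median of 11049 UMIs per file.

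A myosin molecule of the muscle or non-muscle type pairs heavy chains, which carry the motor, with essential and regulatory light chains that wrap around the lever arm. Myl1 encodes the essential light chain of fast muscle and Mylpf its regulatory partner. Myl4 is the essential chain of embryonic muscle and the atrium, Myl3 that of slow muscle and the ventricle, and Myl2 the regulatory chain of slow and ventricular muscle. In other cells the essential chain is mostly Myl6, and the regulatory chains are Myl9, Myl12a and Myl12b, whose phosphorylation switches the motor on. Myl6b is an essential chain that is grouped with the non-muscle genes but is also known from muscle. Myog, which encodes myogenin, is switched on when myoblasts commit to differentiate, and Acta1 (skeletal actin) and Myh3 (embryonic myosin heavy chain) are made as the sarcomere is assembled.

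All members are annotated as protein-coding (GENCODE M21, build GRCm38). Mylpf (ENSMUSG00000030672) spans bases 127208890 to 127214298 of chromosome 7, Myl1 (ENSMUSG00000061816) bases 66924295 to 66945404 of chromosome 1 and Myl4 (ENSMUSG00000061086) bases 104550663 to 104595753 of chromosome 11. Myl9 (156775420 to 156781658) lies on chromosome 2, Myl2 (122100951 to 122113472) on chromosome 5 and Myl3 (110741861 to 110769798) on chromosome 9. Myl6 (128490860 to 128494145) and Myl6b (128494157 to 128498685) are neighbours on the same strand of chromosome 10, with 11 bases between them. Myl12b (70973133 to 70990890) and Myl12a (70993656 to 71002878) are neighbours on chromosome 17, 2765 bases apart. Of all 50-base words in the last 500 bases of the annotated Myl12a transcripts, 22.6% also occur in those of Myl12b, and 24.6% the other way, so the split of reads between them is uncertain. No other pair of members shares such a word.

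MyoD and myogenin bind E-boxes, whose letters are CANNTG, and prefer the core CAGCTG. Serum response factor binds the CArG box. The 250 bases before the annotated starts were searched on both strands in RefSeq windows (GRCm38.p6), where CAGCTG counts among the CANNTG matches. CAGCTG was present before Mylpf and Myl1, and also before Myl12a and a second start of Myl2. It occurs in 13% of 32851 such windows, and CANNTG in 66.2%. The window of Myl4 held no CANNTG. Myl9 held no CANNTG but a CArG box, CCTAATAAGG, which a second start of Myl6 and the start of Myl3 also had in other spellings, against 1.47% of all windows. None of the windows searched for the members had the MEF2 motif, present in 2.92% of all windows. Below are the stretches outside annotated exons for 3 members that stand for the patterns described: the most abundant sarcomeric regulatory chain, the essential chain of fast muscle, and a smooth muscle-type chain whose level differed less along Myog. They come from chr7:127211358-127211607 (plus strand), chr1:66945144-66945290 (minus strand) and chr2:156775214-156775419 (plus strand). Capitals mark CAGCTG in the first and second and the CArG box in the last.
Mylpf: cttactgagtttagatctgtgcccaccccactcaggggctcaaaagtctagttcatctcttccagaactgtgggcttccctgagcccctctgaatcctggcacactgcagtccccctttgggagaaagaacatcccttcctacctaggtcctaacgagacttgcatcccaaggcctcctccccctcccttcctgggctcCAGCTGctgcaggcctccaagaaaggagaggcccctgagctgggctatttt
Myl1: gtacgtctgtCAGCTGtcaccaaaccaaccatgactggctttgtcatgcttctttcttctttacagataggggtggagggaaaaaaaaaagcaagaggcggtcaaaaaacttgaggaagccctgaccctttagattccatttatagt
Myl9: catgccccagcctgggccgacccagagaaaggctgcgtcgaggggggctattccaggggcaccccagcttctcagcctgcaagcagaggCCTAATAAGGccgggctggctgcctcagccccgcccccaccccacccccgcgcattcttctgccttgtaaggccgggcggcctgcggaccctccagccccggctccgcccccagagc
The capitals lie 45 bases before the start in Mylpf, 218 in Myl1 and 151 in Myl9. The RefSeq genes of Mylpf, Myl1 and Myl4 begin a further 2760, 2876 and 4646 bases upstream of the starts searched, so other starts exist for all 3. Both windows of Myl2 end upstream of its GENCODE start at base 122100951, at bases 122092723 and 122093188. No GENCODE transcript of Myl2 began at either. The bases just before its GENCODE start were therefore not searched. A match describes letters and not a bound site.

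Levels are given in CPM, the number of a gene's UMIs among 1000000 UMIs of the pooled cells. The method reads transcript ends, so CPM does not grow with gene length, but genes differ in how well they are captured. Over all kept cells Mylpf was the most abundant light chain, at 2866, 2868, 2874 and 2882 CPM in replicates 1 to 4. Myl6 followed with 1032, 1030, 1023 and 1029 CPM. Mylpf made up 44.8% of all light chain UMIs and Myl6 16.04%.

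The next 3 genes were close together. Myl1 stood at 755, 776, 772 and 766 CPM, Myl12a at 761, 766, 759.9 and 759.8 CPM, and Myl4 at 745, 747, 749.7 and 750.2 CPM. The ranges of Myl1 and Myl12a overlap, so these 2 neighbours do not differ beyond the spread of the files, while Myl4 lay below both in every file. Myl9 was at 156 CPM (interval 153 to 159), Myl12b at 61.5 CPM (59.6 to 63.4) and Myl6b at 15.6 CPM (14.7 to 16.6). Myl2 and Myl3, the light chains of slow and ventricular muscle, were close to absent, with means of 24 and 11.5 UMIs per file, or 0.362 and 0.176 CPM. Of the light chain genes outside the set, Myl7, the atrial regulatory chain, had 0 UMIs, which allows up to 0.0455 CPM, and Myl10 was at 2.29 CPM.

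Pooled over cells, 68.4% of light chain UMIs were sarcomeric (interval 68.3% to 68.6%). Most cells held less than that. With every cell weighing the same the mean was 38.9%, and the median of the 5300 cells with at least 40 light chain UMIs in the summed files was 31.6%. The 10th percentile was 4.84% and the 90th 85.9%. Sarcomeric UMIs were 50% or more of the total in 39.1% of those cells.

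Along the Myog level of the cell, the sarcomeric and non-muscle genes separated. Cells were placed in 5 bins, with 1875 cells under 100 CPM of Myog, then 775, 736, 1006 and 1089 cells up to the bin of at least 4000 CPM. Mylpf rose through them from 188 to 529, 3147, 5602 and 6463 CPM. Its replicates read 187, 186, 186 and 192 CPM in the lowest bin and 6449, 6458, 6459.8 and 6484 CPM in the highest. The files of neighbouring bins never overlapped.

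**Figure D1:**
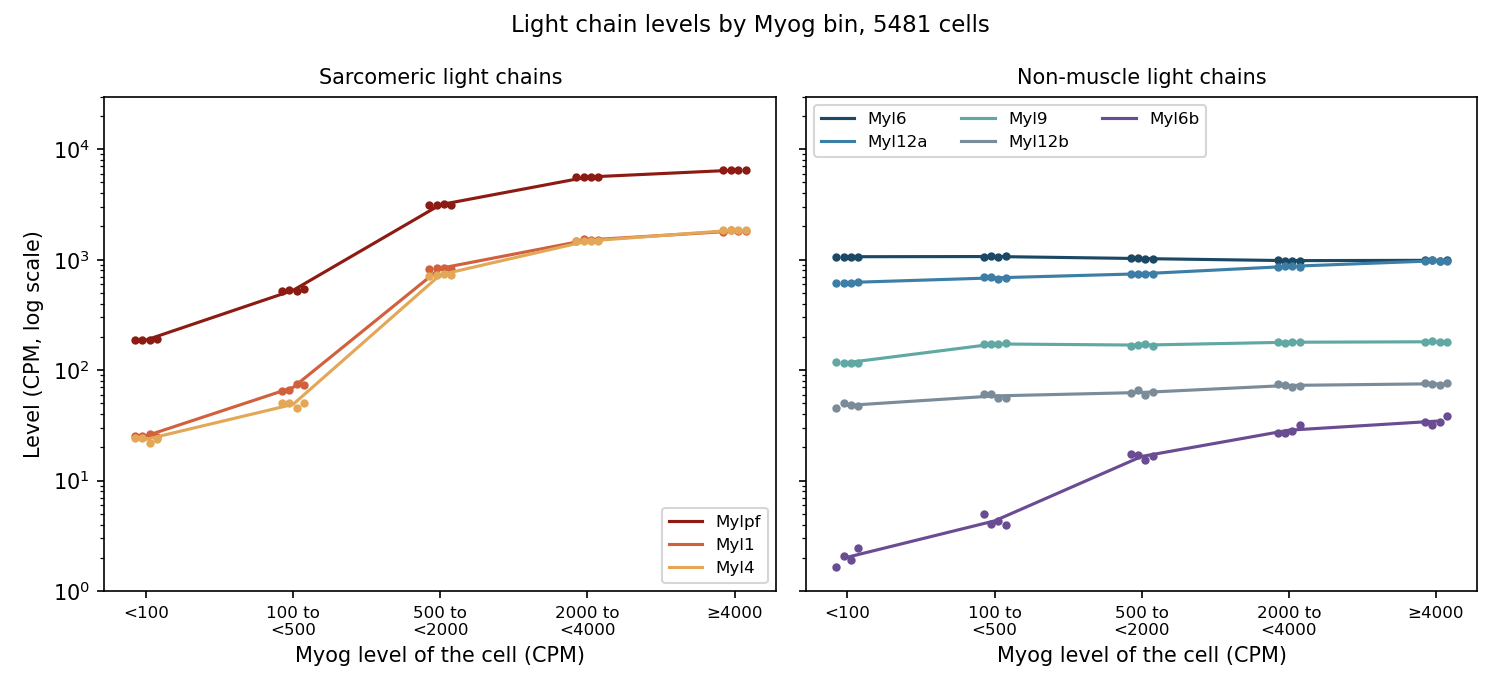
Level of each light chain (CPM, log scale) in cells binned by their Myog level; points are the 4 replicate files and lines join their means, and Myl2 and Myl3 are left out because they rest on under 25 UMIs per file. Mylpf climbs from 188 to 6463 CPM and Myl1 and Myl4 follow with their largest step into the bin of 500 to under 2000 CPM, while among the non-muscle genes Myl6b climbs most, from 2.03 to 34.6 CPM.

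The essential chains began lower and took a larger step. Myl1 read 25.3, 25.4, 26.3 and 24.7 CPM in the 4 files of the lowest bin, and its bin means were 25.4, 69.9, 836, 1508 and 1817 CPM. Myl4 read 24.2, 24.6, 21.9 and 24.0 CPM there, and its bin means were 23.6, 49.1, 730.4, 1475 and 1853 CPM. Like Mylpf, both changed most between the second and the middle bin on the log scale. Their order in the files also turned: Myl1 was above Myl4 in every file of every bin but the highest, and below it in every file there. The files repeat the same cells, and in the highest bin the counting intervals overlap (1793 to 1841 CPM for Myl1 and 1829 to 1878 CPM for Myl4). They also overlap in the lowest bin and in that of 2000 to under 4000 CPM.

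The non-muscle genes kept to a narrow range, with Myl6b as the exception. Myl6 had bin means of 1064, 1068, 1024, 981 and 988 CPM, Myl12a of 622, 685, 746, 870.1 and 978 CPM, Myl9 of 117, 173, 169, 179 and 181 CPM, and Myl12b of 48.0, 58.5, 62.9, 72.8 and 75.4 CPM. Myl9 took nearly all of its step between the first and second bins. Myl6b went from 2.03 (interval 1.48 to 2.71) to 4.33, 16.6, 28.6 and 34.6 CPM. It was 0.190% of the UMIs of Myl6 and Myl6b in the lowest bin and 3.38% in the highest, so that Myl6 remained by far the larger of the pair.

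The sarcomeric share of pooled light chain UMIs was 11.3% (interval 11.04% to 11.62%), 24.6%, 70.02%, 80.1% and 81.8% along the bins. The medians over single cells were 8.11%, 14.9%, 41.8%, 68.2% and 78.4%. Cells spread most in the middle bin, where the 10th percentile was 13.9% and the 90th 86.2%. The share of cells with 50% or more sarcomeric UMIs was 0.455%, 4.92%, 38.1%, 75.5% and 91.9%.

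Cells with at least 2000 CPM of Myog (2095 cells) were then set against those under 100 CPM. Log2 ratios are taken on CPM plus 1, and a gene is called at a 2-fold difference. The sarcomeric sum stood at 9332 against 237 CPM, a log2 ratio of 5.29 (interval 5.26 to 5.33). The ratios were 6.07 for Myl4 (5.95 to 6.19), 5.97 for Myl1 (5.86 to 6.09) and 5.00 for Mylpf (4.95 to 5.04). The intervals of Myl4 and Myl1 overlap, whereas that of Mylpf lies below both. The non-muscle sum was 2192 against 1853 CPM, a log2 ratio of 0.24 (0.22 to 0.26), with Myl6 at -0.11 (-0.14 to -0.09), Myl12a at 0.57, Myl9 and Myl12b both at 0.62, and Myl6b at 3.43 (3.11 to 3.73). Of the sarcomeric members 3 reached the minimum of 50 counts in every file, and these 3 and Myl6b were called higher, as were 8.46% of the 12314 genes compared. No member was called lower, against 20.4% of genes. The median over all genes was -0.30. Myl2 (0.707 against 0.0875 CPM) and Myl3 (0.379 against 0.0110 CPM) fell short of the minimum.

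The heavy chains that these light chains serve also split between the groups, with the muscle genes named here higher and 1 non-muscle gene lower. Of 13 listed genes 8 were compared, and 5 were called higher and 1 lower, with a median log2 ratio of 3.58. Over all 12314 genes compared, 8.46% were called higher and 20.4% lower, with a median of -0.30. Myh1, a fast adult chain, was at 964 against 8.07 CPM, Myh3 at 1408 against 14.3, Myh8, the perinatal chain, at 133 against 1.75, and Myh7, the slow chain, at 44.7 against 0.80 CPM. The non-muscle heavy chain Myh9 was lower, at 128 against 317 CPM, a log2 ratio of -1.30 (interval -1.36 to -1.24), a larger difference than the -0.11 of Myl6. Among 20 genes for kinases and phosphatase subunits that act on regulatory light chains, 19 were compared, with 4 called higher and 3 lower and a median of -0.30. That median is the one over all genes, of which 8.46% were called higher and 20.4% lower, so the list as a whole did not stand out as lower. The highest was Mylk4, a muscle-enriched member of the myosin light chain kinase family, at 304 against 9.10 CPM. Stk17b followed at 114 against 31.2 CPM, and Ppp1r14c, an inhibitor of the phosphatase, at 101.4 against 47.1 CPM. Dapk2 had a log2 ratio of 1.05. The lowest were Cit, a kinase of cytokinesis (8.68 against 51.4 CPM), Ppp1r12c (10.5 against 23.0) and Mylk2, the kinase of adult skeletal muscle, at 1.65 against 4.42 CPM.

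To count the cells that hold each sarcomeric light chain, cells were thinned to 5000 UMIs per file, which left 5197 and dropped 284. In the lowest Myog bin a Mylpf UMI was found in 48.2% of cells, a Myl1 UMI in 11.01% and a Myl4 UMI in 11.6%. In the next bin the shares were 67.0%, 19.8% and 14.4%. Without thinning they were 69.7%, 22.2% and 23.5% in the lowest bin, whose median depth was 11073 UMIs. Since Mylpf is the more abundant gene, its UMIs were thinned further to the same total as Myl1 over all these cells. At equal totals, 18.4% of cells (interval 17.3% to 19.5%) held Mylpf without Myl1 and 6.75% (6.08% to 7.47%) the reverse. Against Myl4 the shares were 21.2% and 6.57%. At equal totals over all these cells Mylpf was thus spread over more of them than either essential chain.

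No cell type that should lack these genes was set apart here, so no background share from free RNA is given, and its part in the low shares was not tested. The composition of the sarcomeric UMIs also differed between the bins. In the lowest Myog bin there were 7.38 UMIs of Mylpf for each of Myl1 (interval 6.75 to 8.06), in the second 7.59, and in the upper 3 bins 3.77, 3.71 and 3.56. Over all kept cells the ratio was 3.74 (3.71 to 3.78). Acta1 UMIs per Mylpf UMI were 0.401 in the lowest bin, 0.355 in the second and 0.850 in the highest. The Mylpf share of 48.2% in that bin stands beside 28.7% for Acta1 and 18.4% for Myog itself, which the bin limits.

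Cells were also ordered by their summed level of Acta1 and Myh3. Over all kept cells, in 4 bins of 1970, 1613, 1422 and 476 cells, Mylpf was at 262, 831, 4739 and 13121 CPM and the sarcomeric share of light chain UMIs at 14.7%, 34.4%, 76.5% and 90.6%. Since Myog differed along this order too, it was repeated within the 2095 cells of at least 2000 CPM of Myog. There the bin of under 100 CPM of Acta1 plus Myh3 held 76 cells, and the others 372, 1234 and 413. Mean Myog was 3060.3, 3386, 4375 and 4359 CPM in them, so the last step took place without a further rise of Myog.

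**Figure D2:**
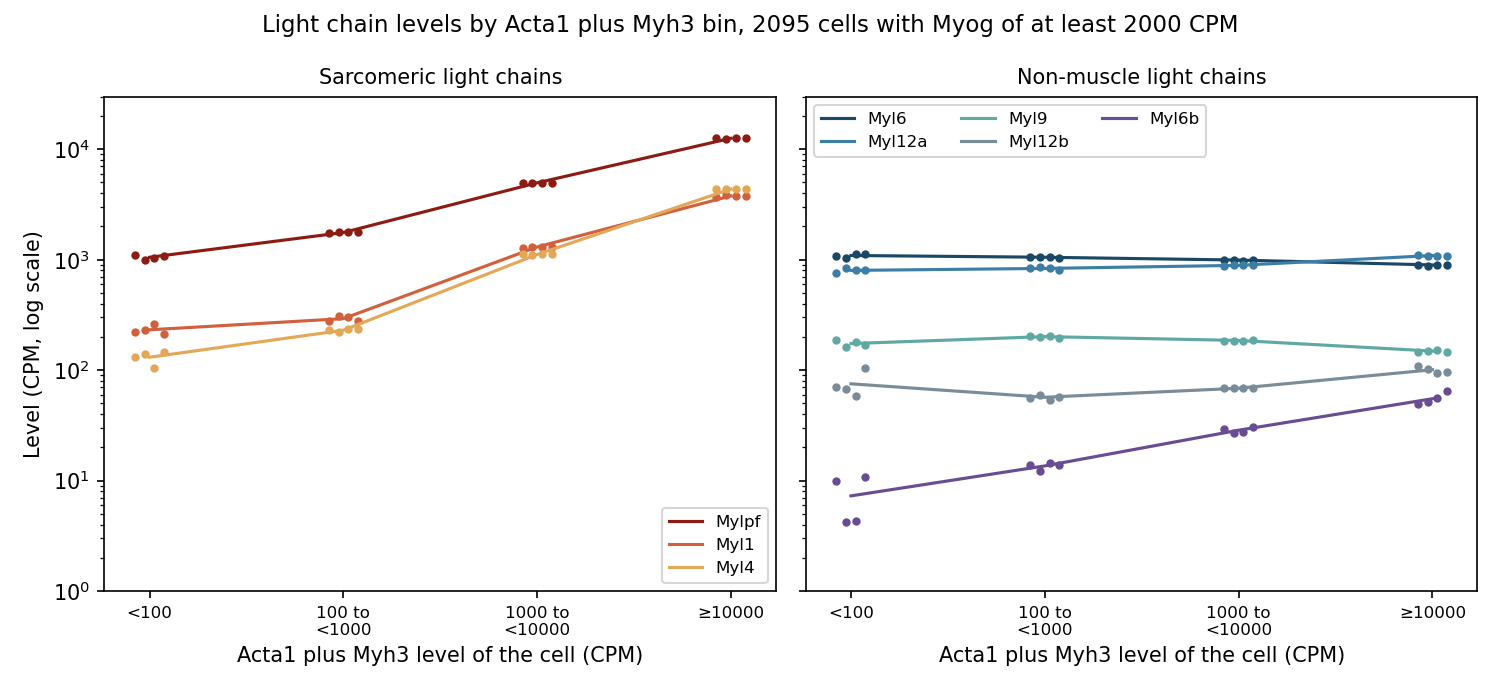
Level of each light chain (CPM, log scale) in cells with at least 2000 CPM of Myog, binned by Acta1 plus Myh3; points are the 4 replicate files and lines join their means. Mylpf goes from 1052 to 12568 CPM and Myl4 from 131 to 4367 CPM, passing Myl1 in the last bin, while Myl6 drifts from 1092 to 897 CPM and Myl6b climbs from 7.29 to 55.2 CPM.

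Pooled over the 76 cells with almost no Acta1 or Myh3, Mylpf, Myl1 and Myl4 were all found, though not in every cell. In the 69 of them left after thinning to 5000 UMIs, 38.8% held both Mylpf and Myl1 and 47.8% Mylpf without Myl1. For Myl4 in place of Myl1 these shares were 30.8% and 55.8%. Mylpf stood at 1100, 995, 1034 and 1077 CPM in the 4 files of that bin, above its mean of 188 CPM in cells with little Myog. Through the following bins it was at 1762, 4966 and 12568 CPM. Myl1 read 220.0, 233, 262 and 214 CPM in the first bin and then 293, 1305 and 3779 CPM. Myl4 read 131, 140.2, 105 and 148 CPM and then 230.1, 1115 and 4367 CPM. In the last bin Mylpf, Myl1 and Myl4 together supplied nearly all of a sarcomeric sum of 20717 CPM, and 90.03% of light chain UMIs were sarcomeric (interval 89.9% to 90.2%), from 39.7% in the first bin.

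The 2 chains of slow and ventricular muscle were read in the most advanced cells only at trace level. Myl2 and Myl3 had 0 UMIs in every file of both lower bins, where 0 counts allow up to 4.33 CPM in the smaller bin. They were at 0.537 and 0.135 CPM in the third and at 1.77 (interval 0.833 to 3.32) and 1.37 CPM (0.556 to 2.76) in the last. Mylpf was present at 12568 CPM in the same cells.

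Among the non-muscle genes, Myl6 had 1092, 1053, 993 and 897 CPM in these bins, and Myl12a went the other way with 800.1, 834, 889 and 1091 CPM. The order of the pair was reversed in every file of the last bin. Myl9 had 174, 201, 186 and 149 CPM and Myl12b 75.3, 56.9, 68.7 and 100.9 CPM. Myl6b had 7.29, 13.6, 28.6 and 55.2 CPM, the first of them resting on about 5 UMIs per file.

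With at least 1000 CPM of Acta1 plus Myh3 against under 100 CPM (1647 against 76 cells), the sarcomeric sum had a log2 ratio of 2.95 (interval 2.86 to 3.04) and the non-muscle sum one of 0.03 (-0.04 to 0.11). Myl4 changed most, by 3.91 (3.61 to 4.22), followed by Myl1 with 3.08 (2.85 to 3.30), Mylpf with 2.73 (2.62 to 2.84) and Myl6b with 2.25 (1.03 to 3.45). The interval of Myl4 lay above those of Myl1 and Mylpf. These 4 members were called higher, as were 7.75% of the 10280 genes compared, and none was called lower, beside 7.36% of genes. The remaining non-muscle ratios lay between -0.17 for Myl6 and 0.24 for Myl12a. Of the kinases and phosphatase subunits, Mylk4 was the 1 gene called higher, at 351 against 27.9 CPM, and Cit and Mylk were lower. The bin of 76 cells also had the shallowest libraries, with a median of 8455 UMIs against 12265 in the last bin, and 42.1% of its cells were in S or G2/M against 1.21%. The part of depth and of the cell cycle in these ratios was not tested.

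**Figure D3:**
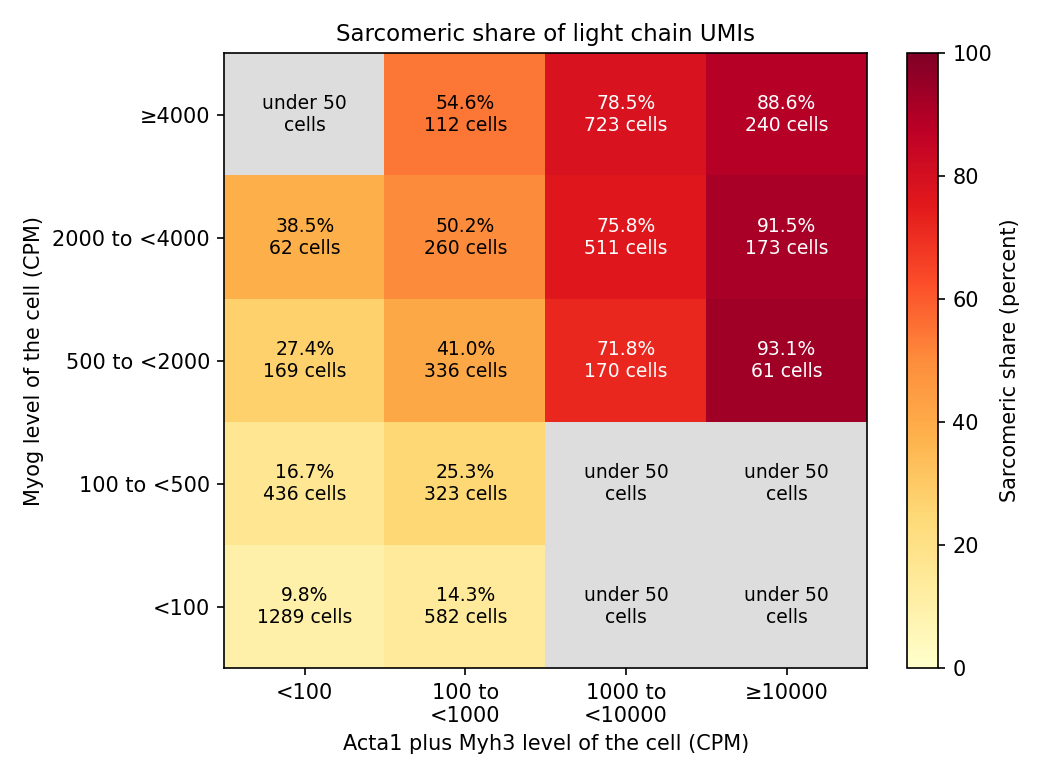
Share of light chain UMIs that is sarcomeric (percent, colour) by the Myog level (vertical) and the Acta1 plus Myh3 level of the cell (horizontal), with the number of cells; grey fields hold under 50 cells. The share climbs to the right in every row and upward in the 3 columns under 10000 CPM of Acta1 plus Myh3, from 9.81% at the lower left, while in the rightmost column it goes from 93.1% down to 88.6% with Myog.

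Myog and the actin and heavy chain level each went with the light chains when the other was held within a bin. At under 100 CPM of Acta1 plus Myh3, the sarcomeric share was 9.81%, 16.7%, 27.4% and 38.5% in the 4 lower Myog bins, and Mylpf 156, 327, 688 and 1057 CPM. Acta1 stayed at 48.0, 46.4, 43.3 and 41.9 CPM in those cells, which the bin limits. At 500 to under 2000 CPM of Myog the share ran through 27.4%, 41.0%, 71.8% and 93.1% with Acta1 plus Myh3. In the cells with the most Acta1 and Myh3 the order along Myog was the opposite: 93.1%, 91.5% and 88.6% in the 3 upper Myog bins, with Mylpf at 16146, 13900 and 11423 CPM and non-overlapping intervals. That bin of Acta1 plus Myh3 has no upper limit. Acta1 and Myh3 in it were at 11463 and 3895 CPM over all kept cells, and at 11195 and 3743 CPM in those of at least 2000 CPM of Myog. Median depth was 14371, 13603 and 11272 UMIs in the 3 Myog bins. The part of these differences was not tested.

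Myl1 and Myl4 are alternative essential partners of the same heavy chains, so their balance was described as the Myl4 share of their summed UMIs. Over all kept cells it was 49.4% (interval 49.0% to 49.7%). Along the Myog bins it was 48.2% (45.2% to 51.2%), 41.3%, 46.6%, 49.4% and 50.5%. With Acta1 plus Myh3 at high Myog it was 36.1% (30.1% to 42.3%), 44.0%, 46.1% and 53.6% (53.1% to 54.1%). The lowest value of the grid was 32.7% (30.0% to 35.5%), in cells of 500 to under 2000 CPM of Myog and 100 to under 1000 CPM of Acta1 plus Myh3, and the highest 54.5%.

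Single cells differed far more than the pools. Counting alone widens the spread of single cells, and its part was not tested. In the 1184 cells with at least 80 UMIs of the pair in the summed files, the median Myl4 share was 48.6%, and it ran from 18.7% at the 10th to 74.2% at the 90th percentile. Within the 469 such cells of at least 10000 CPM of Acta1 plus Myh3 these were 28.3%, 53.0% and 73.5%. The share of a cell taken from replicates 1 and 2 correlated with that from replicates 3 and 4 with r of 0.955 over the 1184 cells, which share their libraries. Whether molecules are counted in more than 1 file was not tested here.

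**Figure D4:**
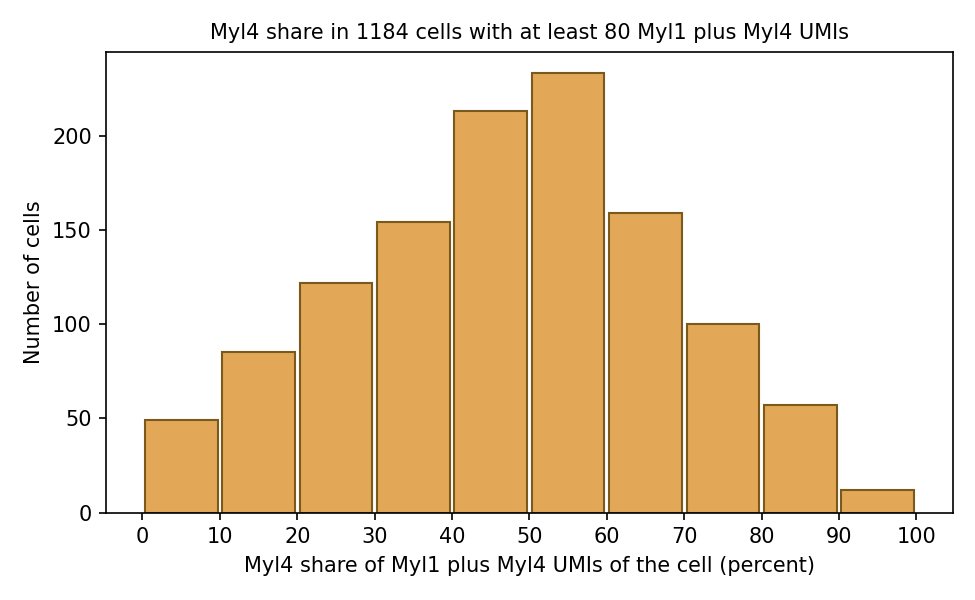
Number of cells by the Myl4 share of their Myl1 plus Myl4 UMIs (percent, in steps of 10), for the 1184 cells with at least 80 such UMIs in the summed files. The cells form 1 broad hump with its fullest bar of 233 cells at 50 to 60%, with 49 cells under 10% and 12 cells at 90% or above.

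Cycling cells were those called in S or G2/M by scores of 43 S and 54 G2/M genes (2434 cells). The rest (3047 cells) are called G1 here, the label that the scoring gives to cells with neither score positive. It does not separate G1 from cells that have left the cycle. The proliferation gene Mki67 stood at 308 CPM in cycling cells and 8.49 CPM in cells labelled G1. These values describe the groups and are not used as a check of the calls. Mylpf was at 883, 883, 885 and 894 CPM in the files of cycling cells and at 4825, 4829, 4840 and 4845 CPM in G1. Myl1 was at 181 against 1347 CPM and Myl4 at 150.4 against 1338 CPM. The log2 ratios were -2.45 (interval -2.46 to -2.43) for Mylpf, -2.89 for Myl1, -3.15 (-3.19 to -3.10) for Myl4 and -2.63 for the sarcomeric sum. Myl6 differed by -0.02 (-0.04 to 0.00), Myl9 by -0.09, Myl12a by -0.43, Myl12b by -0.56 and Myl6b by -2.03, and the non-muscle sum by -0.21. The 3 sarcomeric members compared and Myl6b were called lower, beside 5.44% of the 12895 genes compared. None was called higher, beside 8.7% of genes. Of the heavy chains 9 were compared, with 5 called lower and Myh10, a non-muscle chain, higher (log2 ratio 1.29). Among the kinases and phosphatase subunits Cit was higher by 2.90 and Mylk4 lower, at -2.53.

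Cycling cells also had less Myog, at 714 against 2878 CPM, so the comparison was repeated within Myog bins. The sarcomeric sum was 226 CPM in cycling and 267 CPM in G1 cells of the lowest bin, a log2 ratio of -0.24 (interval -0.33 to -0.15). In the following bins it was 510.1 against 964, 2573 against 7462, 3820 against 10305 and 5183 against 10607 CPM. The ratios there were -0.92, -1.54, -1.43 and -1.03. The difference was thus small where Myog was low and 2-fold or more from 500 CPM of Myog upward. The differences between bins were not tested.

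**Figure D5:**
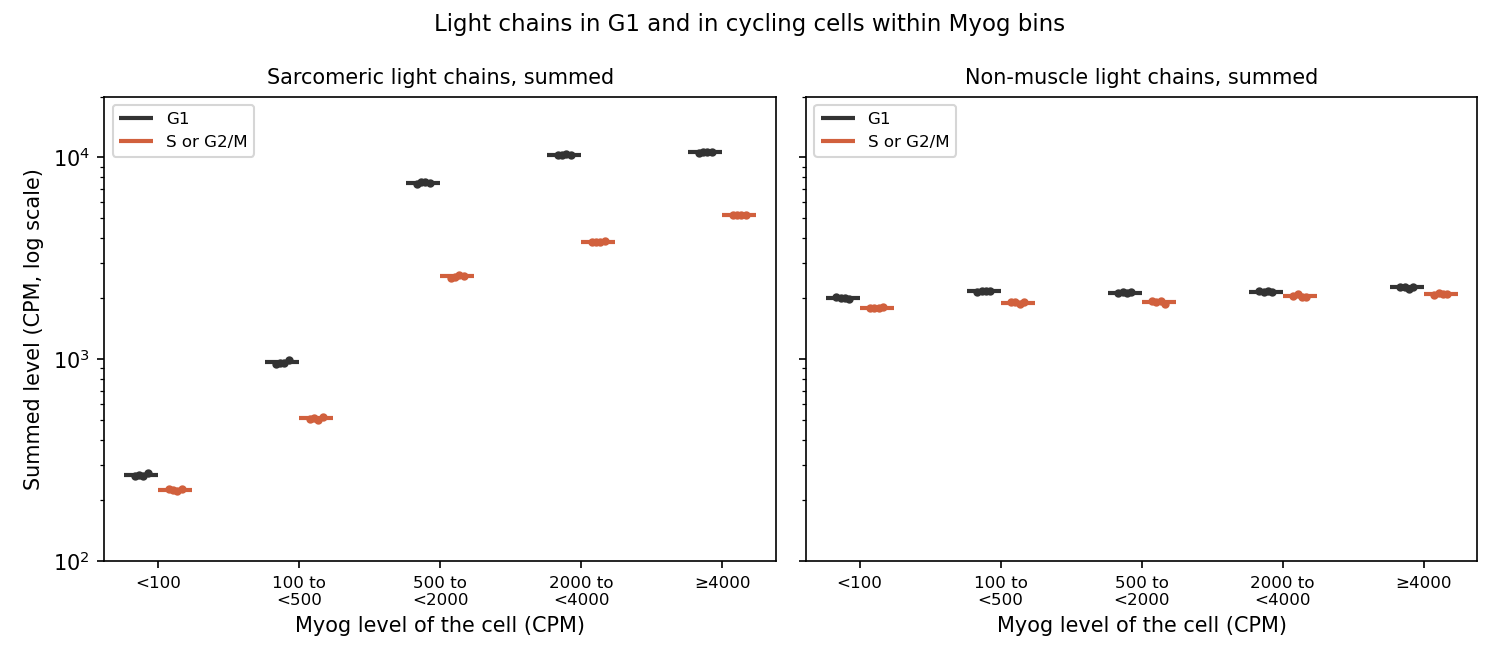
Summed level of the sarcomeric (left) and non-muscle (right) light chains (CPM, log scale) in cells labelled G1 and in cells in S or G2/M, within Myog bins. Points are the 4 replicate files and bars their means. The sarcomeric sum of cycling cells lies below that of G1 cells in every bin, widest at 2573 against 7462 CPM in the middle bin, while the non-muscle sums stay between 1798 and 2271 CPM.

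In cells of at least 2000 CPM of Myog, 333 cycling cells stood against 1762 in G1. Mylpf was at 2941 against 6689 CPM (log2 ratio -1.19), Myl1 at 671 against 1873 (-1.48) and Myl4 at 527 against 1904 CPM (-1.85, interval -1.91 to -1.79). The Myl4 share of the pair was 44.0% in cycling and 50.4% in G1 cells. Myog differed by -0.42, Acta1 by -1.62 and Myh3 by -1.73 on the same scale. The non-muscle sum differed by -0.11, with Myl9 at 0.15 (0.04 to 0.25). Here 3 sarcomeric members and Myl6b were called lower, beside 3.35% of the 10656 genes compared, and none was called higher, beside 7.27%. Among the 5% of kept cells with the most UMIs were 11.4% of these cycling cells and 2.44% of the G1 cells, and the part of doublets was not tested. Without those deepest cells the sarcomeric ratio over all kept cells was -2.90. The 93 cycling cells of at least 4000 CPM of Myog still held Mylpf at 3622 CPM, above the 188 CPM of all cells in the lowest Myog bin.

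Within the cycling cells, S phase had less of the sarcomeric chains than G2/M, with Mylpf at 568 (interval 553 to 583) against 1023 CPM and a sarcomeric share of 30.2% against 42.5%. The non-muscle sums were 1845 and 1890 CPM. Myog also differed, at 352 against 870 CPM, and 5.61% of the S and 10.2% of the G2/M cells were among the 5% with the most UMIs. Their part in the difference was not tested.

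Likeness between genes was measured cell by cell. Pearson r was taken over 5481 cells and 5967 genes of at least 20 CPM, on the log of depth-scaled counts, and is a description, since the cells share libraries and differ in depth. Myl1 was closest to Acta1 (0.876), Mybph (0.856) and Mylpf (0.856). Mylpf was closest to Tnnt3, the fast troponin T (0.883), then Acta1 (0.881) and Myl1. Myl4 was closest to Tnni1, the slow troponin I (0.884), then Acta1 (0.865) and Mef2c, a muscle transcription factor (0.863). Myl6 was closest to Lgals1 (0.482) and the ribosomal protein genes Rpsa (0.466) and Rpl41 (0.454). No gene reached 0.3 with Myl9.

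Markers of other cell types were read beside the light chains. All 13 myocyte markers were higher at high Myog, summing to 29140 against 1273 CPM, and all 4 muscle stem or progenitor markers compared were lower. Myog itself is on the myocyte list, at 4185 against 41.0 CPM, and its direction was set by the choice of the groups. Over all genes compared, 8.46% were called higher and 20.4% lower. Of 12 smooth muscle or pericyte markers, 9 were compared, 5 higher and 3 lower, with sums of 4414 (4398 to 4435 in the files) and 1366 CPM (1360 to 1370). Most of that sum was Acta2 and Des, which muscle precursors also express, and the part of other cells in the light chain levels was not tested beyond these values. The same list summed to 4776 against 2407 CPM between the Acta1 plus Myh3 groups and to 1716 against 3767 CPM in cycling against G1 cells. On this list Myh11 and Cnn1 were at 0.302 and 0.10 CPM over all kept cells, which does not speak for its other members. The 8 cardiac markers summed to 5.06 and 4.64 CPM at high and low Myog, with Nppb and Myl7 at 0. Fibroblast markers summed to 61.0 against 221 CPM, and endothelial and immune markers to under 1.5 CPM on either side.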

How the data were processed

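Single-cell libraries of sorted MyoD-tdTomato high cells were made with a 10x Genomics 3′ kit, per the labels' protocols. The authors deposited unnormalized UMI counts for each gene in each barcode. Cell Ranger 7.1.0 wrote them, per the file headers, while the submitters' processing notes name Cell Ranger 3.1.0 and the builds mm10 and GRCm39. Which build the counts rest on, the annotation and the handling of intronic reads are not given in the sources used here. Of 32285 gene identifiers, 32158 were found in GENCODE M21 (GRCm38), from which the printed positions come.

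Values were computed per file and averaged over the 4 files, without summing except for bins per cell, scores and correlations. CPM is UMIs per 1000000 UMIs of the cells pooled. Bins rest on each cell's CPM averaged over the files. Intervals are exact Poisson (levels), Clopper-Pearson (shares) and conditional binomial (ratios). A floor of 3 counts serves where none was seen. Cell cycle phases came from scanpy 1.11.5, with counts scaled to 10000 per cell. Thinning used seed 1. No doublet caller was run and no doublets were removed. Where 200 genes were changed in simulated counts for the Myog comparison over 11349 genes, 98.5% were called, none of the unchanged genes was, and 96.5% of intervals held the true value. With n = 1, this share does not speak for the spread between samples.

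All members are named in every comparison. Of the heavy chains and of the kinases and phosphatase subunits, at most the 5 with the largest change on each side are named, and of similar genes the 3 with the highest r of at least 0.3. The members and lists were chosen with earlier results of these data known. Alternatives were other cell filters, totals, bins, cycling calls, thinning depths and leaving out each file. Counts of the low-reporter cells were not analysed here.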

Additional observations from a re-analysis of the deposited data

Results flagged for a closer look

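Of 51 light chain values compared over the 4 replicate files, 1 had a file standing apart from the other 3 by Dixon's criterion for the gap between neighbouring values. It was the log2 ratio of Mylpf between cycling and G1 cells, at -2.436 in replicate 4 against a mean of -2.45 in the others. The gap took up 0.921 of the range. Chance alone sets about 1 in 20 such groups apart, and the difference is far smaller than the ratio itself.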

How the results depend on the processing

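Of the alternatives to the 7 values that answer a comparison, 45 lay within the counting interval of the reported value and 22 outside it, and 0 of the log2 ratios changed sign. The sarcomeric share of light chain UMIs (68.4%) was 65.9% with the stricter cell filter (at least 2000 genes and under 5% mitochondrial UMIs) and 38.9% with each cell weighing the same, where the non-muscle chains are the larger class. The sarcomeric log2 ratio between high and low Myog (5.29) was 5.25 with the stricter filter, 5.17 with each cell weighing the same, 5.36 with a total that leaves out 49 muscle and mitochondrial genes, 5.23 with bins from replicates 1 and 2 and light chains from 3 and 4, and 5.53 for the highest against the lowest quintile of cells. The non-muscle ratio (0.24) was 0.26, 0.20 and 0.31 in the first 3 of these. For Acta1 plus Myh3 at high Myog, the sarcomeric ratio (2.95) was 2.83 with the stricter filter, 3.04 with equal weight, 3.05 with bins and light chains from different files and 2.57 between the outer tertiles of cells. The non-muscle one (0.03, with an interval across 0) lay between 0.02 and 0.09 in all alternatives, and gives no direction. The sarcomeric ratio of cycling to G1 cells (-2.63) was -2.57 with the stricter filter, -2.90 without the deepest 5% of cells, -2.68 with the other total, -2.30 when any UMI of Mki67 or Top2a in cells thinned to 5000 UMIs marked cycling and -1.34 within high Myog. The non-muscle one (-0.21) was -0.17 with equal weight, -0.26 with the other total and -0.11 within high Myog. The causes were not tested. Whether molecules are counted in more than 1 file was not tested either, so bins and light chains from different files may not be independent. Leaving out each file in turn gave 68.4% to 68.5% for the share, 5.29 to 5.30, 2.93 to 2.96 and -2.63 to -2.62 for the sarcomeric ratios, and 0.24 to 0.24, 0.02 to 0.05 and -0.21 to -0.21 for the non-muscle ones. Of the values of single genes, 188 stayed within their intervals and 72 did not. No paired analysis was possible because there is 1 group and its files hold the same cells. Depth limits Myl2 and Myl3, with under 25 UMIs per file, and Myl6b in the lowest bins.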

Other observations

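The Myl4 share of single cells was set against other genes. Among the 469 cells with at least 10000 CPM of Acta1 plus Myh3 and at least 80 UMIs of Myl1 and Myl4, 4819 genes of at least 20 CPM were ranked by their correlation with that share, a description chosen after the data were seen and over cells that share their libraries. Behind Myl4 itself came Tnnt2, the troponin T of heart and embryonic muscle (r 0.453), Tnni1, the slow troponin I (0.383), and Myh7, the slow myosin heavy chain (0.366), followed closely by Sept11 (0.364) and Cobl (0.354), which are not sarcomere genes. Myh7 stood at 258 CPM in the tertile of these cells with the highest Myl4 share and at 52.5 CPM in the lowest tertile, Tnni1 at 3959 and 2779 CPM, and Tnnt2 at 5902 and 3784 CPM. The fast troponin I gene Tnni2 went slightly the other way, at 666 against 797 CPM (r -0.107). Most other sarcomere genes looked up followed the Myl4 share weakly or hardly at all. Myh3 had an r of 0.167, at 4371 against 3486 CPM. The r was 0.156 for the slow troponin T gene Tnnt1, 0.152 for Myh8, 0.0928 for Mylpf and 0.0590 for Tnnt3. It was 0.0519 for Acta1 and 0.0382 for Myh1, and Myog was at 0.0380. Myl12b followed it more, at 132 against 67.4 CPM (r 0.30), while Myl12a (0.126) did so weakly. Genes most negative beside Myl1 itself (-0.456) were Mphosph6 (-0.373), Ass1 (-0.340) and Dusp2 (-0.335).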
